A study of Mus musculus with 18 samples.

Results

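The genes described here encode the SREBP transcription factors, the proteins that carry and hold them according to sterol level, and the proteases that release them. They are Srebf1, Srebf2, Scap, Insig1, Insig2, Mbtps1, Mbtps2, Rnf145 and Rnf139, taken from the table by symbol, and each had 1 row among the 55450 genes of the deposited count table. These 9 genes were followed in 18 RNA sequencing libraries from 3 mouse cancer cell lines of wild-type genotype: 4T1 (breast carcinoma), MC38 (colon carcinoma) and LLC (Lewis lung carcinoma). Controls received the solvent DMSO and treated cells 100 µM sildenafil citrate, which inhibits the cGMP-degrading phosphodiesterase PDE5, with 3 libraries per line and treatment. Exposure was 24 hours long for the 4T1 and MC38 lines but 48 hours for LLC, so in comparisons with LLC the line and the treatment time cannot be told apart. The 4T1 cells grew in RPMI 1640 and the other lines in DMEM, so in comparisons with 4T1 the line and the medium cannot be told apart. Separate cultures are not stated for the libraries within a group, so p-values reflect only library-to-library spread, which may be technical. The series title refers to PDE5 and NPC1-mediated cholesterol trafficking, and the question for these genes is whether the transcripts of the sterol-sensing machinery moved with sildenafil, and whether they did so alike in the lines.

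SREBP proteins are made as membrane-bound precursors of the endoplasmic reticulum, where the escort protein SCAP binds them. When membrane cholesterol is plentiful, SCAP is held in place by the retention proteins INSIG1 and INSIG2. When it is scarce, the complex leaves in COPII vesicles for the Golgi, and the site-1 protease (Mbtps1) and site-2 protease (Mbtps2) cut the factor free to enter the nucleus. SREBP-2 (Srebf2) acts mainly on genes of cholesterol synthesis and uptake, and SREBP-1 (Srebf1) mainly on genes of fatty acid synthesis. Srebf2 and Insig1 are themselves known targets of SREBP, which closes feedback loops in both directions. Rnf145 and Rnf139 (also called Trc8) encode sterol-responsive ubiquitin ligases of the endoplasmic reticulum membrane.

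The regulatory sequences upstream of Insig1, Srebf2 and Rnf145 are shown first, because these were the members with the largest rises in 4T1 and MC38. They come from RefSeq promoter windows on build GRCm38.p6, which covered 8 of the 9 members with 15 windows, and each printed run ends before the annotated gene. For Insig1 and Srebf2 the annotated gene begins upstream of the RefSeq start, so distances to the RefSeq start reach beyond the printed runs. The runs are chr5:28071162-28071362 for Insig1, chr15:82147019-82147180 for Srebf2 and chr11:44518706-44518955 for Rnf145, all on the plus strand and written 5′ to 3′. Capitals mark the E-box CACGTG, the run TCACCCCA, and the NF-Y box CCAAT or its reverse complement ATTGG.
Insig1: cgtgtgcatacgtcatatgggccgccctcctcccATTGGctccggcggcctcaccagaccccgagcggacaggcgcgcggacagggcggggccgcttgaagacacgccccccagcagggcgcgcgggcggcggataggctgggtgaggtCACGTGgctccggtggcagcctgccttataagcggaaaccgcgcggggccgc
Srebf2: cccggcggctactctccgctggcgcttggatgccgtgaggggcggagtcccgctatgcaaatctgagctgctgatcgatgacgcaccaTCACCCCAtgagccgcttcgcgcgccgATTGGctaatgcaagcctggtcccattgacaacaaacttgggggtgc
Rnf145: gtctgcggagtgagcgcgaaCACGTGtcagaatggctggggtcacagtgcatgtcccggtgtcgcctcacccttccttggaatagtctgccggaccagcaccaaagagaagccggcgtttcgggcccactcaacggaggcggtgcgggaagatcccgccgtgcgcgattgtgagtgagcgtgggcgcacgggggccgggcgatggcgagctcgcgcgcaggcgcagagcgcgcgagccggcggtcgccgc
The letters TCACCCCA are the 8 inner bases of the sterol regulatory element known from the LDL receptor gene, and this shorter form was chosen after the windows had been read. On both strands, among the members' windows, TCACCCCA occurred only in that of Srebf2, 162 bases before the RefSeq start, and 1.56% of all 32851 windows held it. The full element, with 1 more base on each side, was in none of the members' windows and in 0.0913% of all windows. CACGTG, a sequence that SREBP proteins as well as other helix-loop-helix factors can bind, occurred in the windows of Insig1 (101 bases before the RefSeq start), Rnf145 (230 bases before) and Scap, against 7.15% of all windows. The NF-Y box, common in promoters and present in 37.4% of all windows, was in those of Insig1, Insig2, Srebf1 and Srebf2. The Sp1 box GGGCGG, in 35.7% of all windows, was in those of every member with a window except Mbtps2. The shares are per window, whereas a member is named with a match in any of its windows, and Srebf1, Insig2 and Rnf145 had 3 windows each. The matches therefore describe letters only, and enrichment was not tested.

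The 4T1 libraries held 41070026 to 61600675 counts each, those of MC38 29438227 to 36417407 and those of LLC 26348659 to 32129786, and the lowest count of any member in any library was 525. All 7 epithelial markers checked averaged at least 1 CPM (counts scaled to library size) in 4T1, against 2 in MC38 and 1 in LLC, with Epcam at 0 in every library of those 2 lines. Their summed level lay between 2132 and 2199 CPM in 4T1 controls and between 1875 and 1932 CPM with sildenafil. It lay at 2608 to 2670 and 2106 to 2261 CPM in MC38, and at 202.7 to 228 and 182 to 189 CPM in LLC. In these 2 lines nearly all of the sum was Krt8, at a mean of 2546 CPM in MC38 controls and 212 CPM in LLC controls. The sum of 9 fibroblast and mesenchymal markers lay at 2380.0 to 2447 CPM in 4T1 controls and 2657 to 2672 CPM with sildenafil, at 5090.0 to 5241 and 4300.0 to 4508 CPM in MC38, and at 3082 to 3296 and 4029 to 4063 CPM in LLC. In controls most of this sum was Vim, at a mean of 2394 CPM in 4T1, 4127 CPM in MC38 and 2055 CPM in LLC. Col3a1 was at 0 in both 4T1 groups and Thy1 in both MC38 groups, and Col3a1 averaged 1044 and 2000.0 CPM in LLC. The summed level of 8 leukocyte markers, nearly all of it Cd68, was at 9.71 to 10.2 CPM in 4T1 controls and between 37.4 and 38.4 CPM with sildenafil, while Adgre1 and Cd3e were at 0 in both groups. It lay at 5.92 to 6.39 and 9.75 to 10.5 CPM in MC38, and at 2.57 to 3.15 and 4.65 to 5.62 CPM in LLC. The part of these 3 marker sets in the members' results was not tested. LLC control 3 stood apart from the other LLC controls. Its level of Gm26917, a non-coding transcript next to an annotated ribosomal RNA gene, was 9656 CPM against 29452 and 20836. Several LLC results of the members are given with and without this library, and the other LLC results include it.

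In 4T1, sildenafil was accompanied by higher transcript levels of 6 members and lower levels of 2, with Insig1 raised most, then Rnf145, Srebf2 and Insig2. In MC38 these same 4 genes rose and Scap fell. In LLC only Insig1 and Rnf145 of these 4 rose, together with smaller rises of Scap, Srebf1 and Rnf139, and Mbtps2 fell. These calls rest on edgeR's quasi-likelihood test with Benjamini-Hochberg adjusted p under 0.05 over all genes tested. In 4T1 the 8 members called (6 higher, 2 lower) stand beside 66.7% of all tested genes called, 33.5% higher and 33.3% lower. In MC38 the 5 members (4 higher, 1 lower) stand beside 37.8%, with 19.5% higher and 18.3% lower. In LLC the 6 members (5 higher, 1 lower) stand beside 27.3%, with 15.1% higher and 12.2% lower. The count in 4T1 therefore stands close to a background in which most genes were called, and the sizes of the changes say more than the count. The control and sildenafil libraries did not overlap for 8, 6 and 7 members in 4T1, MC38 and LLC, against 70.9%, 48.8% and 43.6% of all tested genes. In these bulk samples, fewer cells with a transcript and less RNA per cell cannot be told apart.

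**Figure D1:**
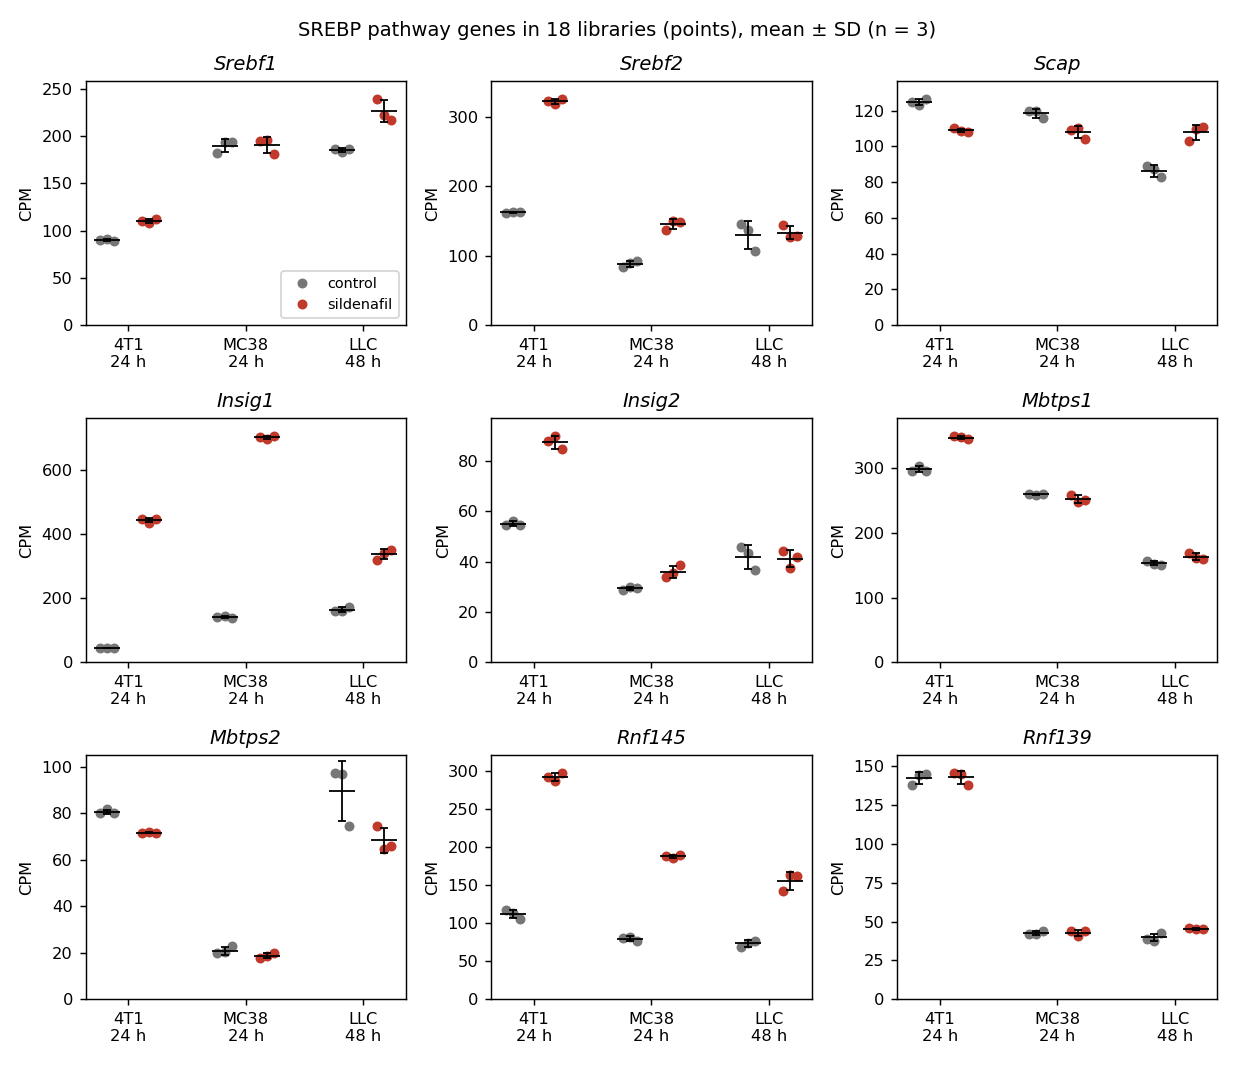
Level of each member in each of the 18 libraries, in CPM (linear axis from 0), with control and sildenafil libraries side by side for 4T1, MC38 and LLC; points are single libraries, and lines and bars are group means ± SD (n = 3). Insig1 and Rnf145 are higher in all 3 sildenafil libraries than in all 3 controls in every line, whereas Srebf2 and Insig2 separate in 4T1 and MC38 and overlap in LLC.

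Insig1, on chromosome 5 at 28071363 to 28078662 (GRCm38, plus strand), encodes the INSIG that turns over rapidly and is itself induced by SREBP. In 4T1 it stood at 45.9, 44.1 and 44.6 CPM in the controls and 447, 436 and 449 CPM with sildenafil. In MC38 it stood at 140, 144 and 139 CPM and then 705, 696 and 706 CPM. In LLC it stood at 159, 162 and 174 CPM and then 320, 342 and 350 CPM. The groups lay far apart in all 3 lines, and libraries within a group differed by little beside the change. The fold changes were 9.78, 4.96 and 2.02, or 3.29 ± 0.0317, 2.31 ± 0.0288 and 1.01 ± 0.052 on the log2 scale (SE, n = 3 per group; edgeR adjusted p = 4.99e-16, 3.94e-17 and 3.29e-06). Ranked by log2 fold change from the highest, Insig1 was number 22 of 13914 tested genes in 4T1, number 4 of 13363 in MC38 and number 116 of 13561 in LLC. The line with the lowest control level, 4T1, had the largest rise, yet its treated level of 444 ± 6.99 CPM (SD, n = 3) was below the 702 ± 5.42 CPM of MC38.

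Insig2, on chromosome 1 at 121304353 to 121332589 (minus strand), encodes the second retention protein, which in the liver is known for regulation apart from SREBP. Its 4T1 controls were at 54.5, 56.2 and 54.8 CPM and its treated libraries at 88.0, 89.9 and 84.8 CPM. In MC38 the values were 28.8, 30.0 and 29.3 CPM and then 33.9, 35.6 and 38.7 CPM. Both lines showed no overlap between groups, and the rises were 0.65 ± 0.0349 (edgeR adjusted p = 2.52e-09) and 0.29 ± 0.0524 (edgeR adjusted p = 0.000412). In LLC the control libraries at 46.0, 43.4 and 36.7 CPM overlapped with treated libraries at 44.3, 37.6 and 41.8 CPM, and the log2 difference was -0.05 ± 0.0931 (edgeR adjusted p = 0.745), or -0.13 without control 3 (edgeR adjusted p = 0.118). The balance between the 2 INSIG transcripts, counted per kilobase of exon, moved with Insig1. The ratio of Insig1 to Insig2 went from 0.913 ± 0.0321 to 5.70 ± 0.248 in 4T1, from 5.40 ± 0.069 to 21.9 ± 1.42 in MC38, and from 4.46 ± 0.755 to 9.25 ± 1.07 in LLC (SD, n = 3), with no overlap in any line. In untreated 4T1 the 2 transcripts were thus near parity, while in untreated MC38 and LLC Insig1 was the more abundant.

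Srebf2, on chromosome 15 at 82147181 to 82205379 (plus strand), encodes SREBP-2. It was at 162.0, 163 and 163 CPM in 4T1 controls and 322, 319 and 325 CPM with sildenafil. In MC38 it was at 84.1, 88.8 and 91.9 CPM and then 138, 150.0 and 148 CPM. Every treated library of these 2 lines exceeded every control, with fold changes of 1.95 and 1.64 (log2 0.97 ± 0.0269 and 0.72 ± 0.0404; edgeR adjusted p = 6.01e-12 and 5.3e-09). In LLC the controls were at 146, 137 and 107 CPM and the treated libraries at 144, 127 and 128 CPM. These overlap, and control 3 is the lowest of the 6. The LLC difference was 0.02 ± 0.125 (edgeR adjusted p = 0.929), and without control 3 it was -0.10 (edgeR adjusted p = 0.175).

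Srebf1, on chromosome 11 at 60199089 to 60222581 (minus strand), encodes the SREBP-1a and SREBP-1c isoforms, which the gene-level counts do not separate. It was at 90.1, 90.6 and 89.1 CPM in 4T1 controls and 110, 108 and 112 CPM with sildenafil, a rise of 0.27 ± 0.0313 (edgeR adjusted p = 3.69e-06). In LLC it was at 186, 183 and 186 CPM and then 239, 222 and 217 CPM, a rise of the same size at 0.27 ± 0.0495 (edgeR adjusted p = 0.00378). In MC38 the groups overlapped, at 182, 194 and 194 CPM against 195, 196 and 181 CPM, and no change was called (0.0011 ± 0.0366, edgeR adjusted p = 0.986). The 2 factor genes therefore had different patterns: Srebf2 rose in 4T1 and MC38, and Srebf1 in 4T1 and LLC. Per kilobase of exon, the ratio of Srebf2 to Srebf1 went from 1.42 ± 0.012 to 2.29 ± 0.0214 in 4T1 and from 0.365 ± 0.00682 to 0.600 ± 0.0447 in MC38, without overlap. In LLC it was 0.550 ± 0.0882 and 0.462 ± 0.0114 (SD, n = 3), and the groups overlapped through control 3, at 0.450 against 0.587 and 0.614 in the other controls. Srebf1 shares 109 bases of exon with Rai1 on the opposite strand.

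Scap, on chromosome 9 at 110333288 to 110384950 (plus strand), encodes the escort protein that senses cholesterol. It was at 125, 123 and 127 CPM in 4T1 controls and 110, 109 and 108 CPM with sildenafil. In MC38 it was at 119.8, 120.0 and 116 CPM and then 109, 111 and 104 CPM. It was lower in every treated library of both lines, by small amounts (log2 -0.21 ± 0.0295 and -0.14 ± 0.0334; edgeR adjusted p = 2.23e-05 and 0.00408). LLC went the other way, from 88.9, 87.6 and 82.7 CPM to 103, 109.6 and 111 CPM, a rise of 0.30 ± 0.0497 (edgeR adjusted p = 0.00221) and of 0.27 without control 3. The difference in response between LLC and 4T1 was 0.52 ± 0.053 (edgeR adjusted p = 4.64e-08) and that between LLC and MC38 was 0.46 ± 0.0536 (edgeR adjusted p = 1.6e-06). Taking the INSIG transcripts together against their binding partner, the ratio of Insig1 plus Insig2 to Scap per kilobase went from 1.81 ± 0.0345 to 11.5 ± 0.107 in 4T1, from 3.40 ± 0.0569 to 16.4 ± 0.648 in MC38 and from 5.64 ± 0.321 to 8.35 ± 0.0832 in LLC (SD, n = 3).

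The 2 proteases did not move together. Mbtps1, on chromosome 8 at 119508156 to 119558735 (minus strand), encodes the site-1 protease of the Golgi, and rose in 4T1 from 296, 304 and 295 CPM to between 345 and 349.6 CPM (0.20 ± 0.0266, edgeR adjusted p = 1.5e-05). No change was called for it in MC38 (-0.04 ± 0.0282, edgeR adjusted p = 0.243) or in LLC (0.07 ± 0.0454, edgeR adjusted p = 0.265). With all 18 libraries in 1 fit, Mbtps1 was called higher in LLC (0.09, edgeR adjusted p = 0.0418). Mbtps2, on chromosome X at 157535371 to 157598715 (minus strand), encodes the site-2 protease, a metalloprotease that cuts within the membrane. It was lower in treated 4T1 cells, at 71.4, 71.9 and 71.5 CPM against 80.2, 81.7 and 80.2 CPM (-0.19 ± 0.0316, edgeR adjusted p = 0.000116). That call ended with all 18 libraries in 1 fit (-0.17, edgeR adjusted p = 0.0776) and with the level of the transcript Gm26917 as a covariate (-0.17, edgeR adjusted p = 0.646). In LLC it was at 97.1, 96.9 and 74.7 CPM in the controls and 74.6, 64.5 and 66.1 CPM with sildenafil. The LLC groups were separated only narrowly, because control 3 lay near the treated libraries. The LLC fall of 0.41 on the log2 scale had an SE of 0.116 and an edgeR adjusted p of 0.0418. It was -0.52 ± 0.0582 without control 3 (edgeR adjusted p = 8.84e-06), but leaving out control 1, control 2, sildenafil 2 or sildenafil 3 ended the call (-0.34, -0.34, -0.36 and -0.38; edgeR adjusted p between 0.1145 and 0.131). In MC38 the value was -0.16 ± 0.0641 (edgeR adjusted p = 0.065). Mbtps2 shares 2867 bases of exon with Yy2 on the same strand and its counts were not whole numbers in any of the 18 libraries, and its level is uncertain because it is not known how reads of the shared bases were assigned.

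The 2 ubiquitin ligases behaved differently. Rnf145, on chromosome 11 at 44518964 to 44565520 (plus strand), encodes a ligase known to act on SCAP. It was at 117, 113 and 106 CPM in 4T1 controls and 292, 286 and 296 CPM with sildenafil. In MC38 it went from 80.8, 82.0 and 76.6 CPM to 188, 186 and 189 CPM, and in LLC from 68.8, 74.1 and 77.2 CPM to 142, 163 and 161 CPM. No control library of a line reached any of its treated libraries, and the fold changes were 2.57, 2.35 and 2.09 (log2 1.36 ± 0.0361, 1.23 ± 0.0329 and 1.06 ± 0.0643; edgeR adjusted p = 4.42e-12, 1.46e-13 and 6.78e-06). In rank it was number 466 in 4T1, 56 in MC38 and 104 in LLC, the last above Insig1. Rnf139, on chromosome 15 at 58889229 to 58907057 (plus strand), showed no called change in 4T1 (142 ± 3.91 and 143 ± 4.28 CPM) or in MC38 (42.7 ± 1.18 and 42.7 ± 1.88 CPM; SD, n = 3). In LLC it went from 39.1, 37.8 and 42.5 CPM to 46.0, 45.0 and 45.2 CPM (0.17 ± 0.0544, edgeR adjusted p = 0.0426). DESeq2 did not make that call (adjusted p = 0.0918), and it was lost when any single library other than control 3 was left out (edgeR adjusted p between 0.105 and 0.13). The value was 0.22 without control 3 (edgeR adjusted p = 0.00254). Rnf139 shares exon sequence with Gm49356 on its own strand and with Tatdn1 on the other, and the strand setting of the counting is not given in the sources used here.

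**Figure D2:**
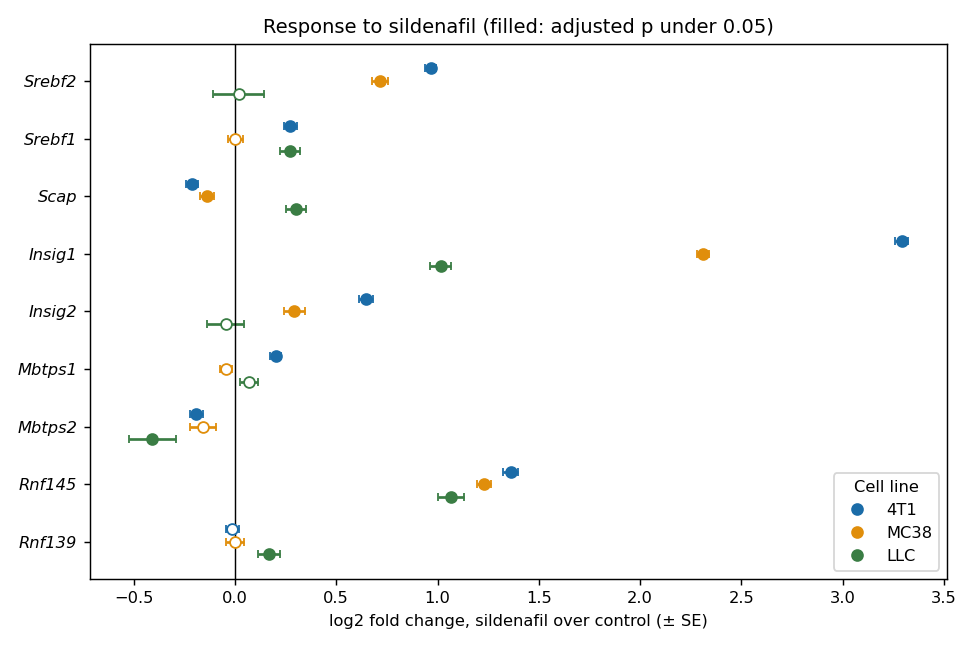
Log2 fold change of sildenafil over control for each member (x axis) in 4T1, MC38 and LLC, with bars of 1 SE and filled points where the edgeR adjusted p is under 0.05. Insig1 spans the widest range, from 1.01 in LLC to 3.29 in 4T1, Rnf145 lies between 1.06 and 1.36, and Scap is below 0 in 4T1 and MC38 and above 0 in LLC.

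Whether the response differed between lines was tested as a difference of log2 fold changes over all 18 libraries. MC38 differed from 4T1 for 4 members, all with a lower value in MC38 (34.6% of all tested genes were called, 17.9% higher and 16.7% lower). LLC differed from 4T1 for 7 members, 5 lower and 2 higher (42.0% of all genes, 21.8% higher and 20.2% lower), and LLC from MC38 for 7 members, 3 lower and 4 higher (22.3% of all genes, 12.6% higher and 9.68% lower). The difference for Insig1 was -0.995 ± 0.0553 for MC38 minus 4T1, -2.27 ± 0.0557 for LLC minus 4T1 and -1.28 ± 0.0548 for LLC minus MC38 (edgeR adjusted p = 7.6e-12, 6.74e-18 and 2.54e-13). It was thus graded over the 3 lines. For Srebf2 it was -0.95 ± 0.117 for LLC minus 4T1 and -0.68 ± 0.119 for LLC minus MC38 (edgeR adjusted p = 6.77e-06 and 0.000669). Between MC38 and 4T1 the Srebf2 difference of -0.27 ± 0.117 was not called (edgeR adjusted p = 0.097), and it was called without LLC control 3 (edgeR adjusted p = 0.000893), which enters this difference only through the shared normalisation and spread. For Rnf145 the difference was called only between LLC and 4T1, at -0.30 ± 0.0711 (edgeR adjusted p = 0.00159). Srebf1 responded less in MC38 than in either other line, with a difference of -0.29 ± 0.0566 from 4T1, and LLC exceeded MC38 by 0.28 ± 0.0565 (edgeR adjusted p = 0.000305 and 0.000738).

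The control libraries alone showed different levels of this machinery between the lines, with medium and time differing as given above. At least 1 pair of lines differed for each of the 9 members, and most genes of the table differed between lines as well. MC38 was higher than 4T1 for 2 members and lower for 6, where 84.5% of all tested genes were called (44.3% higher, 40.2% lower). LLC was higher than 4T1 for 3 and lower for 6 (86.7% of all genes, 43.7% higher and 42.9% lower), and higher than MC38 for 4 and lower for 2 (77.2%, 38.5% higher and 38.7% lower). Insig1 was lowest in 4T1 at 14.5 ± 0.297 CPM per kilobase of merged exon (RPKM), against 45.7 ± 0.822 in MC38 and 53.3 ± 2.56 in LLC (SD, n = 3). All neighbours in that order differed, LLC from MC38 by 0.24 ± 0.0408 on the log2 scale (edgeR adjusted p = 0.000116). Srebf1 was also lowest in 4T1, at 16.0 ± 0.139 RPKM, and did not differ beyond the spread between MC38 (33.7 ± 1.2 RPKM) and LLC (32.8 ± 0.35 RPKM; edgeR adjusted p = 0.593).

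Most of the other members had their highest control level in 4T1. Srebf2 was at 22.6 ± 0.0957 RPKM in 4T1, 18.1 ± 2.83 in LLC and 12.3 ± 0.543 in MC38 (SD, n = 3). The difference of LLC over 4T1 was small and only just called (-0.25 ± 0.0993, edgeR adjusted p = 0.0436), with -0.12 without LLC control 3 (edgeR adjusted p = 0.00683) and a range of adjusted p up to 0.114 over the alternatives. Mbtps2 differed most, at 2.07 ± 0.164 RPKM in MC38 against 7.98 ± 0.085 in 4T1 and 8.86 ± 1.27 in LLC, a 4.32-fold gap between LLC and MC38 (edgeR adjusted p = 2.9e-08). These levels are uncertain because of the exon bases shared with Yy2, as given above. The higher Mbtps2 level of LLC over 4T1 (0.23 ± 0.0942, edgeR adjusted p = 0.0412) was 0.35 without LLC control 3 (edgeR adjusted p = 8.94e-08), and over the alternatives its adjusted p ran up to 0.297. Mbtps1, its partner in the cleavage, was instead lowest in LLC, at 14.6 ± 0.326 RPKM against 24.7 ± 0.0458 in MC38 and 28.3 ± 0.431 in 4T1. Rnf139 was at 27.8 ± 0.765 RPKM in 4T1 and 8.36 ± 0.232 and 7.79 ± 0.469 in MC38 and LLC, which did not differ from each other in the test (edgeR adjusted p = 0.124). The exon sequence that Rnf139 shares with its neighbours, given above, is a limit on these levels as well. Rnf145 ran from 14.4 ± 0.746 RPKM in 4T1 to 10.3 ± 0.364 in MC38 and 9.42 ± 0.547 in LLC, with no call between the last 2 (edgeR adjusted p = 0.0855). Without LLC control 3, MC38 and LLC did differ in both ligases, by -0.14 for Rnf145 and -0.13 for Rnf139 (edgeR adjusted p = 0.0125 and 0.0104). Scap was at 16.8 ± 0.237 and 15.9 ± 0.316 RPKM in 4T1 and MC38, without a called difference, and at 11.6 ± 0.434 RPKM in LLC. Insig2 was at 15.9 ± 0.268 RPKM in 4T1, 12.1 ± 1.37 in LLC and 8.46 ± 0.175 in MC38.

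**Figure D3:**
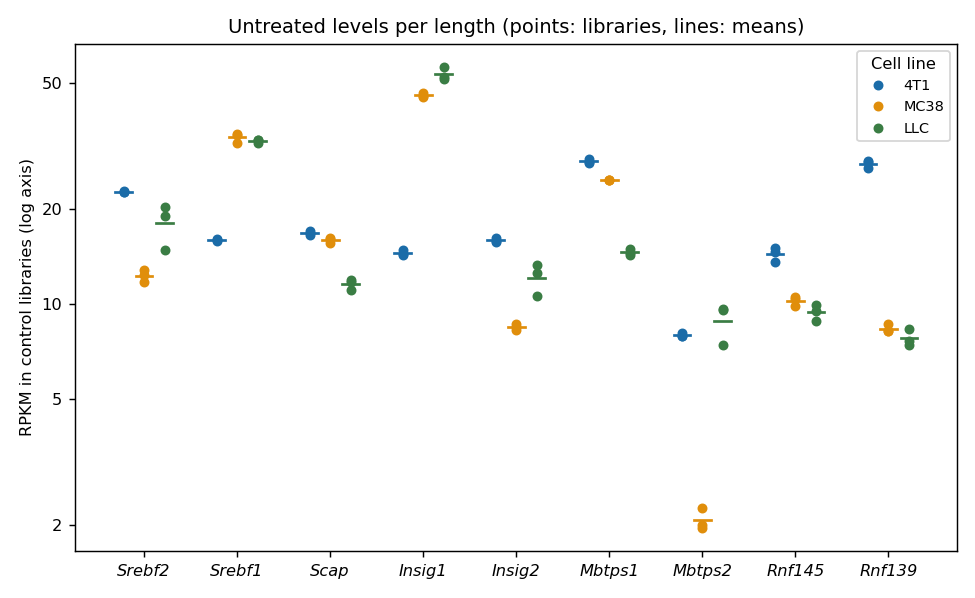
Level of each member in the 9 control libraries, in CPM per kilobase of merged exon (RPKM, log axis), by line; points are libraries and short lines are group means. Insig1 and Srebf1 are lowest in 4T1, Mbtps2 is lowest in MC38 and Mbtps1 is lowest in LLC.

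Gm26917 was followed because an earlier reading of these data had found Srebf2 to move with it. In MC38 it was at 9373, 10982 and 14799 CPM in the controls and 5062, 6201 and 5782 CPM with sildenafil. In LLC it was at 29452, 20836 and 9656 CPM and then 13764, 7115 and 5851 CPM. In each of these 4 groups the library with the most Gm26917 was also the one with the most Srebf2. In 4T1 Gm26917 was far lower and went the other way with sildenafil, from 156 ± 2.93 to 252 ± 17.6 CPM (SD, n = 3). The 4T1 control with the most Gm26917 (control 1) had the least Srebf2. Among the treated 4T1 libraries, sildenafil 3 had the most of both (265 CPM of Gm26917 and 325 CPM of Srebf2). With the log2 level of Gm26917 as a covariate in the LLC fit, the Srebf2 value was 0.30 ± 0.057 (edgeR adjusted p = 0.00282). Without the covariate it was 0.02 ± 0.125 (edgeR adjusted p = 0.929). Because Gm26917 was picked for moving with Srebf2 in these data, the smaller SE and adjusted p cannot count as support for a rise. Over all alternatives the adjusted p of Srebf2 in LLC ran up to 0.99. Under the same covariate the LLC calls of Mbtps2 (-0.15, edgeR adjusted p = 0.14) and Rnf139 (0.13, edgeR adjusted p = 0.216) were lost, while Insig1 and Rnf145 stayed raised by 0.92 and 0.93. Treatment shared 46.4% of the variance of log2 Gm26917 in LLC, and 85.0% in MC38 and 96.7% in 4T1. The covariate and the treatment can thus be told apart only in part in LLC, and hardly in the latter 2 lines. There the covariate ended the calls of Srebf1 (0.10, edgeR adjusted p = 0.773), Scap, Mbtps1 and Mbtps2 in 4T1 and of Insig2 and Scap in MC38. Without LLC control 3, the LLC values of Insig1, Rnf145 and Srebf1 were 1.06 ± 0.0444, 1.10 ± 0.0634 and 0.28 ± 0.0462, and that of Mbtps1 was 0.06 ± 0.0427, with no call gained or lost among these 4. The part of the RNA that Gm26917 marks in these results was not tested further.

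**Figure D4:**
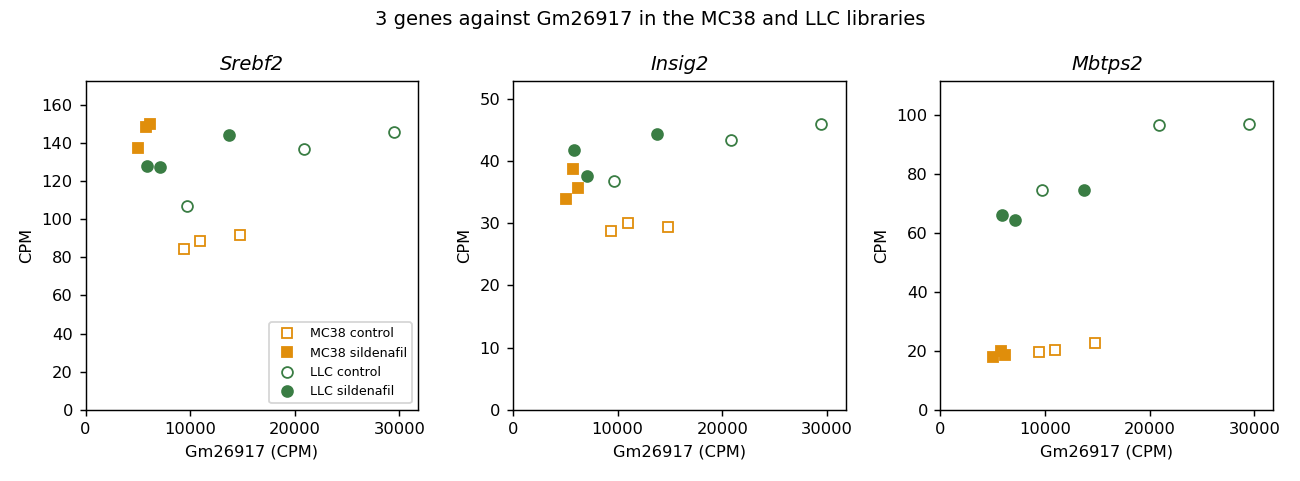
Levels of Srebf2, Insig2 and Mbtps2 in CPM (y axes, linear from 0) against the level of Gm26917 in CPM (x axis) in the 12 MC38 and LLC libraries, with controls as open and sildenafil libraries as filled symbols. Within the LLC controls, control 3 lies at the low end of both axes for Srebf2 (107 CPM) and Mbtps2 (74.7 CPM).

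Other genes of the pathway were taken from 6 lists drawn up with earlier results of these data known. Of the SREBP-2 targets, which held none of the members, 11 of 11 tested genes rose in every line, with median log2 fold changes of 2.05, 1.87 and 0.73 in 4T1, MC38 and LLC against about 0 over all genes (0.0023, 0.0040 and -0.0062). The SREBP-1 targets, enzymes of fatty acid synthesis and desaturation, gave 10 rises and 1 fall of 11 in 4T1, 9 rises in MC38, and 8 rises and 1 fall in LLC, with medians of 0.89, 1.17 and 0.36. Of all tested genes, 33.5%, 19.5% and 15.1% were called higher in 4T1, MC38 and LLC, and 33.3%, 18.3% and 12.2% lower. In MC38, where Srebf1 itself was not called, Elovl6 (fatty acid elongase) rose by 1.60 ± 0.0286 and Acly (ATP citrate lyase) by 1.17 ± 0.0281. The exceptions were Gpam, the mitochondrial glycerol-3-phosphate acyltransferase, in 4T1 (-0.26 ± 0.0366) and Me1, malic enzyme, in LLC (-0.37 ± 0.0728).

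The counts for the genes around the members are to be read against the 66.7%, 37.8% and 27.3% of all tested genes called in 4T1, MC38 and LLC. The shares by direction are those given above. In 4T1 the calls of the COPII and degradation lists, both directions together, stood near that background. Of 12 genes of the COPII coat, which buds the vesicles that carry SCAP and SREBP, 3 rose and 5 fell in 4T1, 5 rose and 1 fell in MC38, and 2 rose and 1 fell in LLC. Sec23a, a subunit of the inner coat, rose by 0.41 ± 0.0332 in 4T1, against the majority of the list's calls there. It rose by 0.34 ± 0.0335 in MC38 and stood at -0.0059 ± 0.046 in LLC (edgeR adjusted p = 0.938). Its LLC response differed from those in 4T1 and MC38 by -0.42 ± 0.0524 and -0.33 ± 0.0528 (edgeR adjusted p = 8.02e-07 and 7.17e-05). Sec23b instead fell in 4T1 (-0.16 ± 0.0339) and rose in MC38 (0.17 ± 0.0317) and LLC (0.27 ± 0.0661). Sec24a fell in 4T1 (-0.43 ± 0.0481). Of 14 genes of sterol-regulated degradation at the endoplasmic reticulum, 1 rose and 9 fell in 4T1, 5 rose and 3 fell in MC38, and 3 rose and none fell in LLC. Among those with the smallest adjusted p in 4T1 were Erlin1, an erlin scaffold (-0.45 ± 0.0297), and Ube2g2, a ubiquitin-conjugating enzyme (-0.47 ± 0.0439). The 1 gene called higher in 4T1 was Erlin2 (0.28 ± 0.0365), which also rose in MC38 (0.24 ± 0.034). Ube2g2 rose in LLC, by 0.29 ± 0.0579. Its response in LLC exceeded that in 4T1 by 0.76 ± 0.0691 (edgeR adjusted p = 6.94e-09).

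Among the other substrates of the 2 proteases, 3 rose and 1 fell of 6 tested in 4T1 and in MC38, and 1 rose and 2 fell of 5 in LLC. Atf6, the stress sensor of the endoplasmic reticulum that is cut by the same proteases, fell by 0.24 and 0.35 on the log2 scale in 4T1 and LLC and rose by 0.22 ± 0.0279 in MC38. Its response in MC38 exceeded that in 4T1 by 0.44 ± 0.0539 (edgeR adjusted p = 8.68e-07). Of the other modulators of SREBP, 4 rose and 2 fell of 14 in 4T1, 5 rose of 13 in MC38, and 5 rose and 2 fell of 15 in LLC. A single gene stands in both this list and that of the SREBP-2 targets. Nr1h2, which encodes the oxysterol receptor LXR-beta, rose by 0.75 ± 0.0418 in 4T1 and 0.39 ± 0.0633 in MC38, and was not called in LLC (0.08 ± 0.0616, edgeR adjusted p = 0.338). Lpin1, a phosphatidate phosphatase that restrains nuclear SREBP, rose by 2.58 ± 0.0564 in 4T1 and 2.09 ± 0.0348 in MC38, and was not called in LLC (-0.21 ± 0.0757, edgeR adjusted p = 0.0612). Its LLC response differed from that in 4T1 by -2.79 ± 0.0855 and from that in MC38 by -2.29 ± 0.0813 (edgeR adjusted p = 4.08e-16 and 1.93e-14).

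**Figure D5:**
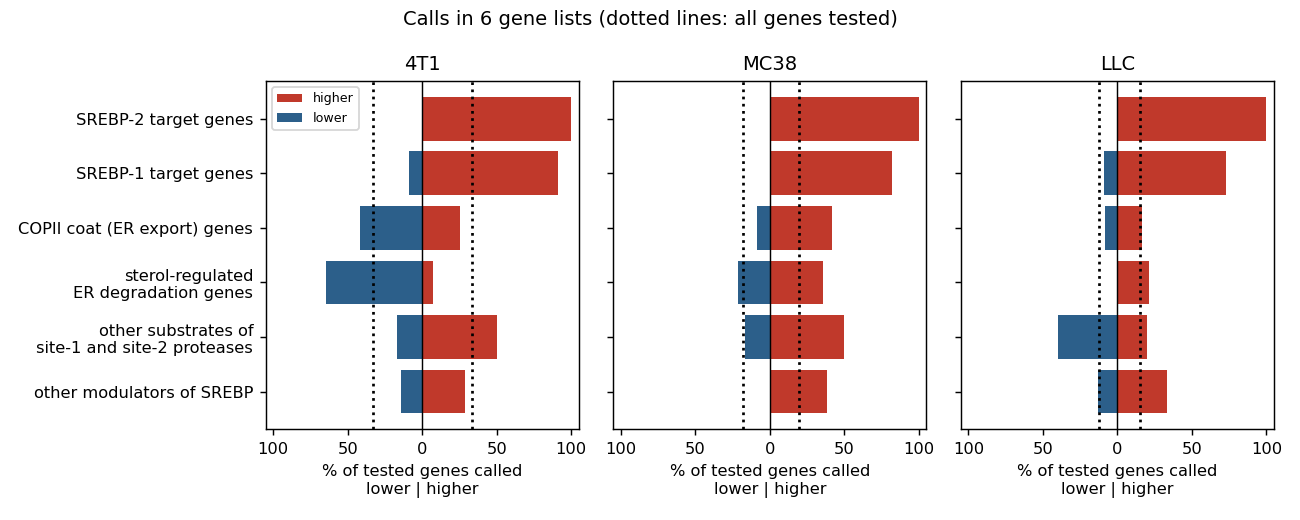
Share of the tested genes of each of 6 lists called higher (to the right) or lower (to the left) with sildenafil, in percent, in 4T1, MC38 and LLC; dotted lines mark the shares among all tested genes. All tested SREBP-2 targets are called higher in the 3 lines, and the degradation genes are called mostly lower in 4T1 (9 of 14, against 33.3% of all tested genes).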

How the data were processed

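Per the labels, polyA RNA was sequenced from stranded libraries with paired reads of 100 cycles. The authors deposited RSEM expected counts per gene for 18 libraries. Tools named in the submitters' processing notes are RSEM 1.3.1, STAR 2.7.0f, cutadapt 1.18 and bcl2fastq 2.17, with genome build mm10. Their order, the annotation release and the strandedness option were not given in the sources used here. All 55450 rows matched GENCODE M21, which gave positions and exon lengths.

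Expected counts were rounded, and 4.30% to 6.91% of a library's values were not whole. edgeR 4.0.16 in R 4.3.3 (TMM, default filter, robust quasi-likelihood F test, Benjamini-Hochberg over all genes, threshold 0.05) was fitted within each line (4 residual degrees of freedom), to 18 libraries for differences between lines (12) and to 9 controls for baselines (6). SE was obtained from the log2 fold change and the F statistic. CPM was scaled by TMM over 18 libraries, and RPKM is CPM per kilobase of merged exon. The tests were also run on simulated counts, with outcomes not reported here. These counts held no library that stands apart, so they do not bear on LLC control 3. Replicate pairs all differed beyond sampling noise. Alternatives were DESeq2 1.42.0, limma-voom 3.58.1, RLE factors, library totals alone, no filter, 5 CPM in 3 libraries, a replicate block, 1 fit of 18 libraries, a Gm26917 covariate and each library left out.

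The members, lists and rules were chosen with earlier results of these data known. Named were all members, up to 3 genes per list and line with the smallest adjusted p, genes called against their list's majority, the 5 genes most like Srebf1, Srebf2 and Insig1, and Gm26917. Not every gene so named is described, and some are not reported here. Plots were drawn with matplotlib 3.10.9.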

Additional observations from a re-analysis of the deposited data

Results flagged for a closer look

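The differences in sildenafil response between lines that passed edgeR's quasi-likelihood test (adjusted p under 0.05) number 18 of 27 tested, and their values are log2 differences. MC38 minus 4T1 was -0.995 for Insig1, -0.37 for Insig2, -0.29 for Srebf1 and -0.26 for Mbtps1. LLC minus 4T1 was -2.27 for Insig1, -0.95 for Srebf2, -0.69 for Insig2, -0.30 for Rnf145, -0.13 for Mbtps1, 0.52 for Scap and 0.18 for Rnf139. LLC minus MC38 was -1.28 for Insig1, -0.68 for Srebf2, -0.32 for Insig2, 0.46 for Scap, 0.28 for Srebf1, 0.19 for Rnf139 and 0.13 for Mbtps1. The smallest of these depended on settings: over the alternatives the adjusted p of the Mbtps1 difference ran from 0.00152 to 0.274 for LLC minus 4T1 and from 0.0159 to 0.209 for LLC minus MC38. For the Rnf139 difference it ran from 0.00164 to 0.109 for LLC minus 4T1 and from 0.00475 to 0.121 for LLC minus MC38. For the Insig2 difference between LLC and MC38 it ran from 0.000292 to 0.0871. Line and medium cannot be told apart in differences from 4T1, nor line and treatment time in differences from LLC.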

How the results depend on the processing

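Over 81 member values and 1539 pairs of a value and an alternative, 1380 kept direction and side of the threshold, 89 lost the call, 20 gained it and 50 changed sign, all of the last in values without a call. Members called numbered 8 in 4T1, 5 in MC38 and 6 in LLC. Leaving out each library gave 8 to 8, 5 to 6 and 4 to 6, with 14 to 20 for differences between lines (18) and 21 to 25 for baselines (23). The Gm26917 covariate left 4 members called in 4T1 and 3 in MC38. The calls lost in 4T1 were those of Srebf1 (0.27 to 0.10, edgeR adjusted p = 0.773), Scap (-0.21 to -0.24), Mbtps1 (0.20 to 0.23) and Mbtps2 (-0.19 to -0.17), and in MC38 those of Insig2 (0.29 to 0.37) and Scap (-0.14 to -0.21), so that only the Srebf1 value moved by over 1.5 times towards 0. In LLC 3702 genes were called in all, against 5994 without control 3, 2299 without control 1, 1999 without sildenafil 2 and 1841 without sildenafil 3.

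Deviations of same-numbered libraries correlated at -0.0719 to 0.238, and those of different-numbered libraries at -0.194 to 0.128. In MC38 all same-numbered correlations were positive (0.0764, 0.0104 and 0.238), so whether the numbers pair the libraries is not settled. With a replicate block, members called were 8 in 4T1, 6 in MC38, 6 in LLC, 20 for differences and 22 for baselines.

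Sign changes were as follows, as log2 values. Rnf139 in 4T1 was 0.0559 with library totals, 0.0155 with the 5 CPM filter, 0.0063 with 18 libraries in 1 fit and 0.23 with the covariate, and ran from -0.0408 to 0.012 with each library left out. In MC38 it was 0.0219 with totals, 0.0023 with no filter, 0.0014 with 18 libraries and 0.0417 with the covariate (left out: -0.0184 to 0.0341). Its difference between MC38 and 4T1 ran from -0.0369 to 0.0319 with each library left out. Srebf1 in MC38 was -0.0040 with DESeq2 and -0.0040 with RLE (left out: -0.0263 to 0.0385), its LLC minus 4T1 difference was 0.0101 with no filter (left out: -0.0435 to 0.028), and its LLC over MC38 baseline was 0.025 with DESeq2, 0.0249 with RLE, 0.0608 with totals and 0.0166 with the 5 CPM filter. With the covariate Mbtps2 in MC38 was 0.18 and Insig2 in LLC 0.16 (left out: -0.13 to 0.0275). Mbtps2 for MC38 minus 4T1 was -0.0129 with totals (left out: -0.024 to 0.0848). The Scap baseline of MC38 over 4T1 was 0.014 with the 5 CPM filter (left out: -0.0637 to 0.0171). Srebf2 in LLC ran from -0.10 to 0.11 with each library left out and was 0.30 with the covariate. The cause of these changes was not tested. The lowest member count was 525, and precision rests on 3 libraries per group.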

Other observations

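Likeness of pattern was measured as Pearson's r of log2 CPM, centred within each line, over the 18 libraries and among 10617 genes with a mean of at least 5 CPM. The points share their libraries and the treatment contrast, and r is a description only. The genes most like Insig1 were Mvd (mevalonate diphosphate decarboxylase), Fdps (farnesyl diphosphate synthase), Idi1 (isopentenyl diphosphate isomerase), Acat2 (acetyl-CoA acetyltransferase) and Pcyt2 (an enzyme of phosphatidylethanolamine synthesis), with r from 0.999 to 0.995. Pcyt2 stood at log2 fold changes of 1.44, 1.18 and 0.55 in 4T1, MC38 and LLC.

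The genes most like Srebf2 were Ttc39b, Hk1, Nlrc5, Acsl4 and Dpysl2 (r from 0.981 to 0.976). None of them was on the lists of SREBP targets, which held only 11 tested genes each, and the r of Srebf2 with Insig1 was 0.94. Acsl4, an acyl-CoA synthetase for arachidonate, stood at 1.09, 0.58 and 0.13 and Hk1, a hexokinase, at 0.30, 0.23 and -0.02. The genes most like Srebf1 were Adamts9, Phtf1, Evc, Irf2bpl and Col6a1 (r from 0.957 to 0.946). Col6a1, a collagen VI chain, stood at 1.04, -0.11 and 0.88 in 4T1, MC38 and LLC. Among the members, Insig2 was closer in pattern to Srebf2 (r = 0.957) than to Insig1 (0.874), and Rnf145 was closer to Insig1 (0.954) than to Srebf2 (0.831). Scap ran against Insig2 (r = -0.55) and Srebf2 (-0.51), and Mbtps2 against Rnf145 (-0.74).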
